A study of Homo sapiens with 32 samples.

Results

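The amino acid transporter families measured here are SLC1, SLC3, SLC6, SLC7, SLC36, SLC38 and SLC43, carriers mostly of the plasma membrane and lysosome. They also hold carriers of other substrates, such as dopamine (SLC6A3) and purine nucleobases (SLC43A3), and the heavy chain SLC3A2, all counted below. A transcript cluster, the array's unit for a gene, was taken as a member when its annotation gave 1 gene symbol and that symbol belonged to 1 of these 7 families. This gave 54 clusters for 53 genes, of 16309 clusters in all and 13482 with 1 symbol. SLC7A14 has 2 clusters. A further 6 clusters carry a family symbol together with another symbol (SLC3A1 with PREPL, SLC36A2 with SLC36A1, SLC7A6 with SLC7A6OS and SLC6A8 with SLC6A10P) and were left out, so that SLC3A1, SLC36A2, SLC7A6 and SLC6A8 have no value below.

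RNA came from LNCaP, an androgen-responsive human prostate cancer cell line maintained in RPMI-1640 with fetal bovine serum. In the 4 R1881 samples, cells that had spent 72 hours in charcoal-stripped serum were given 10 nM of the synthetic androgen R1881 for 24 hours. The 4 steroid-deplete samples spent the same 72 hours in stripped serum and, by the study's methods, a further 24 hours without hormone. The samples are replicates of 1 cell line. The study's methods describe the experiment as done in quadruplicate, and neither they nor the labels say whether the 4 cultures of a group were grown independently, so the p-values measure the spread between these samples, which may be technical. Each sample was hybridised to a Human Exon 1.0 ST Array, and gene-level values are log2 signals made by RMA. Signal depends on a cluster's own probes, and levels of different genes were therefore not set against each other. In these bulk samples a change in the number of cells that express a gene cannot be told apart from a change in RNA per cell.

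Median signal per array was 6.22 to 6.31 with R1881 and 6.33 to 6.40 in steroid-deplete medium. The treatments parted along the first principal component (73.3% of the variance). R1881 replicate 4 and steroid-deplete replicate 1 stood apart on the second (8.27%). Of 10 luminal prostate markers 5 were measured by a cluster with 1 symbol, and TMPRSS2, KLK2, SLC45A3 and KLK3 rose while HOXB13 fell (log2 fold change -0.44). KLK3, which encodes prostate-specific antigen, averaged 12.24 with R1881 and 10.41 in steroid-deplete medium. None of 7 stromal and 2 basal markers measured passed the test. Of 7 leukocyte markers, CD68 was higher (0.35, adjusted p = 0.0049), PTPRC, CD3E, CD3D, LYZ, CD14 and NKG7 did not pass, and their part in the results below was not tested.

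Cells take up amino acids through carriers that differ in substrate and coupling. SLC38 and SLC6 carriers couple import to sodium, SLC1A5 and the SLC7 light chains mainly exchange 1 amino acid for another, and SLC43 carriers let large neutral amino acids move down their gradient. SLC7 light chains such as SLC7A5, SLC7A8 and SLC7A11 need a heavy chain, SLC3A2, to reach the cell surface. When amino acids are scarce, the transcription factor ATF4 raises several of these carriers together with enzymes of amino acid synthesis, while on the lysosome SLC38A9 and SLC36A1 take part in amino acid sensing by mTORC1.

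With R1881, SLC38A4 and SLC43A1 rose by more than 2-fold, SLC7A11 and SLC7A2 fell by more than 2-fold, and most other transporters moved little. SLC38A2, SLC1A5, SLC36A4 and SLC7A8 also rose, by less than 2-fold, whereas 9 further members fell by less than 2-fold. In limma's moderated test with Benjamini-Hochberg adjustment over all clusters, 2 of 54 clusters (3.7%) were called higher (adjusted p under 0.005, with a change of 2-fold or more), against 1.94% of all clusters, and 2 (3.7%) were called lower, against 2.04%. Without the limit on the fold, 6 (11.1%) were higher, against 6.44% of all clusters, and 11 (20.4%) were lower, against 12.2%. All 4 R1881 arrays lay above all 4 steroid-deplete arrays for 8 members (14.8%), against 11.2% of all clusters, and below them for 13 (24.1%), against 18.7%. The other 33 overlapped. The median log2 fold change of the members was 0.04, beside -0.003 over all clusters. The shares of members called at 2-fold are 2 clusters each, and the difference of these shares from those of all clusters was not tested. The 17 members whose mean signal was under the 25th percentile of all clusters (4.89) included SLC7A7 alone of those that passed.

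**Figure D1:**
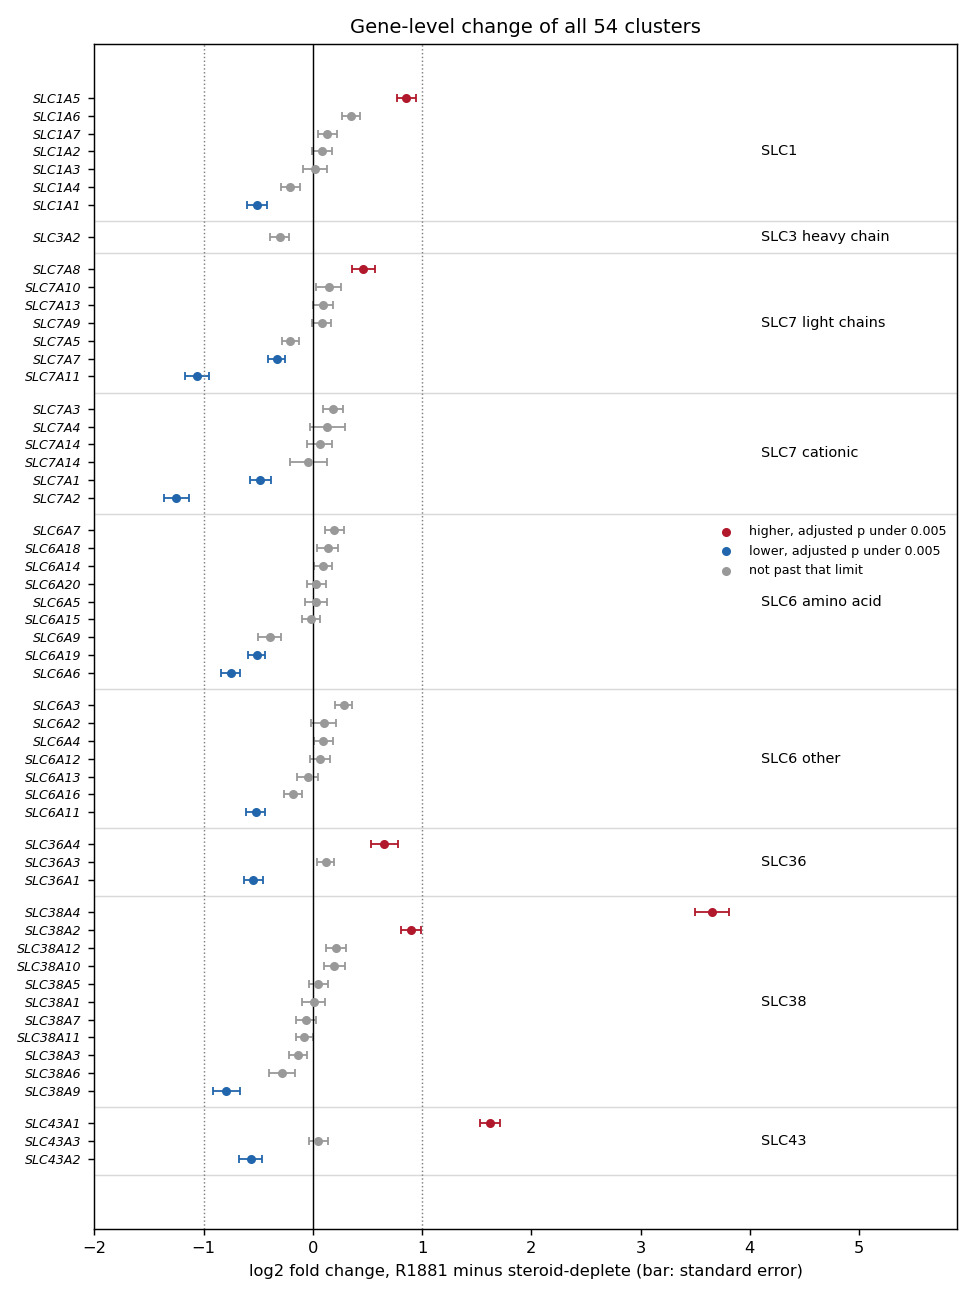
Gene-level log2 fold change (x axis, R1881 minus steroid-deplete, bars are standard errors, 4 arrays per group) of the 54 clusters, ordered within each family, with dotted lines at 2-fold. SLC38A4 (3.65) and SLC43A1 (1.62) lie right of the upper dotted line, SLC7A11 (-1.06) and SLC7A2 (-1.25) left of the lower, and most of the others are near 0.

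SLC38A4, a sodium-coupled importer of small neutral amino acids known chiefly from liver, had the highest fold change among the members. Its log2 signal was 7.02, 6.39, 7.19 and 6.68 with R1881, against 3.23, 3.39, 2.90 and 3.16 in steroid-deplete medium. The groups lay more than 2 log2 units apart at their nearest arrays. The change was 3.65 on the log2 scale (SE 0.16, adjusted p = 9.82e-10), which is 12.55-fold on the measured signals. The steroid-deplete mean of 3.17 ± 0.20 (SD, n = 4) is low in the range of the array, above 7.96% of cluster means in that group, and detection p-values were not used here, so it was not established whether the transcript was above background without hormone.

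SLC38A4 lies on chromosome 12 beside SLC38A2 and SLC38A1, with no other protein-coding gene between them in the RefSeq annotation (GRCh38.p14), and this row of related carriers held a rise of more than 2-fold, a smaller rise and a gene that did not pass the test. SLC38A2, like SLC38A4 an importer of the sodium-coupled system A type, had a log2 signal of 11.58, 11.54, 11.76 and 11.40 with R1881, against 10.68, 10.78, 10.60 and 10.62 in steroid-deplete medium. All 4 R1881 arrays were above the others, by 0.90 on average (SE 0.09, adjusted p = 4.49e-06). SLC38A1, a sodium-coupled glutamine carrier, had 9.55, 9.53, 9.75 and 9.36 with R1881, against 9.48, 9.77, 9.45 and 9.47 without. Its groups overlapped and the difference was 0.01 (SE 0.10, adjusted p = 0.968). The differences between these 3 fold changes were not tested.

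The promoter windows of the 3 neighbours are shown because their genes lie side by side and had these 3 outcomes. Each runs from 250 bases before to 50 after a RefSeq start (GRCh38.p14, minus strand), and capitals mark matches to the androgen receptor hexamer AGAACA or, on the other strand, TGTTCT.
SLC38A4, chr12:46825948-46826247: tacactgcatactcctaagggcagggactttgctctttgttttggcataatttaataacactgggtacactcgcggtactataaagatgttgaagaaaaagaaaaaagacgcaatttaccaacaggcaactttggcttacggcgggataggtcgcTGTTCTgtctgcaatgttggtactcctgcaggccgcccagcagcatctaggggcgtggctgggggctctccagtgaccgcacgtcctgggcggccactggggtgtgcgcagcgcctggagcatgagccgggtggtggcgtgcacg
SLC38A2, chr12:46372724-46373023: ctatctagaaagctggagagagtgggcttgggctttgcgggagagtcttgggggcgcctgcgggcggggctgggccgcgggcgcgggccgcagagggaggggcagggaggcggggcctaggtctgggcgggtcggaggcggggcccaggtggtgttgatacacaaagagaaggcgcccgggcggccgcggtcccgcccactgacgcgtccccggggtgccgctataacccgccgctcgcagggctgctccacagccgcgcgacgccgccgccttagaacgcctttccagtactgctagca
SLC38A1, chr12:46267938-46268237: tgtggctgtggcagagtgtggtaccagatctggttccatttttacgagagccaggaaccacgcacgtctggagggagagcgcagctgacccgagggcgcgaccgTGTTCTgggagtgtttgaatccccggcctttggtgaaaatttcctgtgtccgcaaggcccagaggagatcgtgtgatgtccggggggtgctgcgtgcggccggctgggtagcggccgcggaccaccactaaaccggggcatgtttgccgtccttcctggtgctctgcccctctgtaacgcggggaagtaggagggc
The hexamer was found at position -95 of the SLC38A4 window and at -146 of this SLC38A1 window (SLC38A1 has a second window without a match), and not in the SLC38A2 window. SLC38A4, which rose, and SLC38A1, which did not pass the test, thus share a match that SLC38A2, which also rose, lacks in these letters. The C plus G share is 55% for SLC38A4, 72% for SLC38A2 and 62.3% for the SLC38A1 window shown, beside a median of 58.7% over all windows. Among the members, RefSeq windows were matched for 40 of 53 genes (62 windows), and 6 windows (9.68%) held the hexamer, in SLC38A11, SLC36A3, SLC36A4, SLC38A1, SLC38A4 and SLC7A7, against 14.8% of all 35116 windows. No member window held 2 hexamers as an inverted repeat spaced by 3 bases, which was found in 1 of all windows. A match is a description of the letters and not a site of binding.

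None of the other SLC38 members passed the test as higher. SLC38A9, the lysosomal arginine sensor of the mTORC1 pathway, had a log2 signal of 6.34, 6.43, 6.32 and 6.05 with R1881, against 6.72, 7.18, 7.31 and 7.10 in steroid-deplete medium. It was lower in every R1881 array, by -0.79 on average (SE 0.12, adjusted p = 2.30e-04). SLC38A12 (0.21), SLC38A10 (0.20), SLC38A5 (0.05), SLC38A7 (-0.07), SLC38A11 (-0.08), SLC38A3 (-0.14) and SLC38A6 (-0.28) did not pass the test, so that 2 of 11 SLC38 clusters were higher, 1 was lower and 8 did not pass.

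Of the 3 SLC43 genes, SLC43A1 rose and SLC43A2 fell. SLC43A1, a facilitated carrier of branched-chain and other large neutral amino acids also known as LAT3, had a log2 signal of 8.62, 8.26, 8.33 and 8.36 with R1881, against 6.70, 6.78, 6.73 and 6.88 in steroid-deplete medium. The groups were more than 1 log2 unit apart, and the change was 1.62 (SE 0.09, adjusted p = 1.46e-08), or 3.08-fold. SLC43A2, a carrier of the same substrates also known as LAT4, averaged 7.37 ± 0.20 with R1881 and 7.94 ± 0.11 in steroid-deplete medium (SD, n = 4 each), a change of -0.57 (adjusted p = 8.65e-04). SLC43A3, which lies near SLC43A1 on chromosome 11 with 1 protein-coding gene between them and transports purine nucleobases rather than amino acids, averaged 4.16 with R1881 and 4.11 without (0.05, adjusted p = 0.733).

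Among the SLC1 carriers, SLC1A5 rose and SLC1A1 fell. SLC1A5, an exchanger of neutral amino acids including glutamine also known as ASCT2, had a log2 signal of 8.33, 8.18, 8.42 and 8.32 with R1881, against 7.27, 7.45, 7.52 and 7.59 in steroid-deplete medium. The groups did not overlap and differed by 0.86 (SE 0.09, adjusted p = 6.32e-06). SLC1A1, an importer of glutamate, aspartate and cysteine, averaged 7.11 ± 0.14 with R1881 and 7.62 ± 0.10 without (SD, n = 4 each), a change of -0.51 (adjusted p = 6.71e-04). SLC1A4, or ASCT1, an exchanger related to SLC1A5, was at -0.21 (adjusted p = 0.0831). SLC1A6, a glutamate transporter of cerebellar neurons, was at 0.35 with all R1881 arrays above the others but missed the limit (adjusted p = 0.00536), and SLC1A2, SLC1A3 and SLC1A7 lay between 0.02 and 0.13.

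The C/EBP-ATF element core TTGCATCA, the sequence through which ATF4 acts, was found in 3 of 62 member windows (4.84%), against 0.866% of all windows, and all 3 belong to SLC1 genes. The difference of these shares was not tested. Several members had no matched window, SLC7A11, SLC7A2 and SLC6A6 among them, and could not be searched. The stretches are shown because SLC1A5 and SLC1A4 carry the same core and had different fold changes, with the core or its reverse complement TGATGCAA in capitals (RefSeq, GRCh38.p14).
SLC1A5, chr19:46784893-46784922, minus strand, at -97 of 1 of its 3 windows: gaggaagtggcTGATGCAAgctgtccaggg
SLC1A4, chr2:64989381-64989410, plus strand, at -7 of 1 of its 2 windows: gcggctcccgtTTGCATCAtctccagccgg
The third match was in a window of SLC1A3 at -220, a gene whose log2 fold change was 0.02 (adjusted p = 0.917).

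Of the SLC7 light chains, SLC7A11 and SLC7A7 fell and SLC7A8 rose, while their heavy chain did not pass the test. SLC3A2, the heavy chain, had a log2 signal of 8.57, 8.48, 8.69 and 8.47 with R1881, against 8.80, 8.73, 8.97 and 8.92 in steroid-deplete medium. All R1881 arrays were below the others, but the change of -0.30 (SE 0.09) did not pass the limit (adjusted p = 0.0168). SLC7A11, the light chain xCT that imports cystine in exchange for glutamate, had 7.51, 7.49, 7.35 and 7.11 with R1881, against 8.18, 8.45, 8.45 and 8.61 without. It fell by 1.06 on the log2 scale (SE 0.11, adjusted p = 6.78e-06), or 2.08-fold. This lies just past the 2-fold limit, and without R1881 replicate 4 (-0.97) or without steroid-deplete replicate 4 (-0.997) the change was a little under it, with adjusted p still under 0.005, so that 1 rather than 2 members was then called lower. The same held when the arrays were centred on their medians (-0.96) or quantile-normalised again (-0.998).

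SLC7A5, the light chain LAT1 that imports leucine and other large neutral amino acids, had 5.96, 5.88, 5.81 and 5.74 with R1881, against 6.05, 6.09, 6.06 and 6.01 without, a change of -0.21 (SE 0.08, adjusted p = 0.0633). With gene-level Iter-PLIER values, the authors' other summary of the same arrays, its change was -0.80 (adjusted p = 0.00147). SLC7A8, the light chain LAT2, averaged 8.29 ± 0.21 with R1881 and 7.83 ± 0.13 without (SD, n = 4 each) and was higher by 0.46 (adjusted p = 0.00483). It stayed past the limit in 1 of the 8 fits that left out an array (without R1881 replicate 2), with adjusted p of up to 0.0194 in the other 7. SLC7A7, the light chain y+LAT1 of cationic amino acid efflux, was lower by -0.33 (adjusted p = 0.00417), at means of 3.86 with R1881 and 4.19 without, and missed the limit in all but 1 of the fits without an array. SLC7A9, SLC7A10 and SLC7A13 were between 0.08 and 0.15 and did not pass.

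Of the cationic amino acid transporters, SLC7A2 and SLC7A1 fell. SLC7A2, a carrier of arginine, lysine and ornithine also known as CAT2, had a log2 signal of 5.79, 5.73, 5.57 and 5.35 with R1881, against 6.61, 6.91, 7.01 and 6.92 in steroid-deplete medium. No array of either group reached the range of the other, and the change was -1.25 (SE 0.11, adjusted p = 1.52e-06), or 2.38-fold. SLC7A1, the widely expressed arginine carrier CAT1, averaged 8.12 ± 0.17 with R1881 and 8.60 ± 0.10 without (SD, n = 4 each), a change of -0.48 (adjusted p = 0.0015), and did not pass without R1881 replicate 2 (adjusted p = 0.00592) or without steroid-deplete replicate 4 (adjusted p = 0.00717). SLC7A3 (0.19), SLC7A4 (0.13) and the 2 clusters of SLC7A14 (0.06 and -0.04) did not pass.

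**Figure D2:**
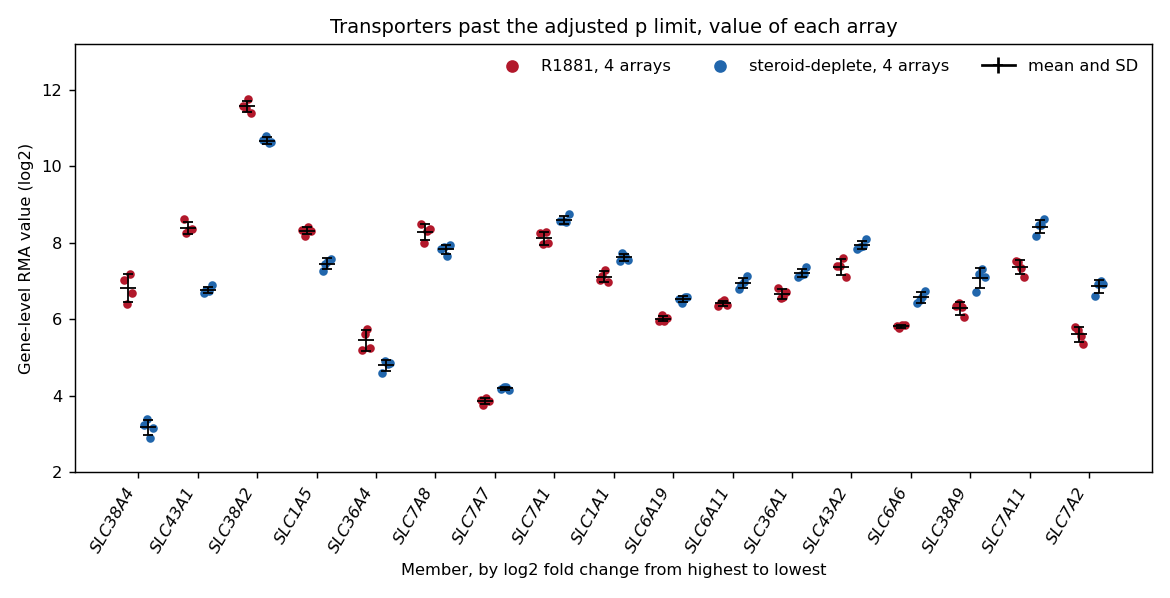
Gene-level log2 RMA signal (y axis) of the 17 members past an adjusted p of 0.005 on each of the 4 R1881 and 4 steroid-deplete arrays, with mean and SD, ordered by log2 fold change. For all 17 the R1881 points lie entirely above or entirely below the steroid-deplete points, and the gap is widest for SLC38A4, at a mean of 6.82 with R1881 and 3.17 in steroid-deplete medium.

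The SLC36 carriers gave 1 member in each direction. SLC36A4, a high-affinity carrier of proline and tryptophan, averaged 5.44 ± 0.26 with R1881 and 4.79 ± 0.13 in steroid-deplete medium (SD, n = 4 each) and rose by 0.65 (adjusted p = 9.40e-04). SLC36A1, or PAT1, which exports small amino acids from the lysosome, averaged 6.67 ± 0.12 with R1881 and 7.21 ± 0.11 without, a change of -0.54 (adjusted p = 3.72e-04). SLC36A3, near SLC36A1 on chromosome 5, was at 0.12 (adjusted p = 0.299). SLC36A1 and SLC38A9, named above for their part in amino acid sensing on the lysosome, were lower with R1881, while SLC36A4 rose. They were picked for that role and do not stand for all lysosomal members. Location in the cell was not recorded for every member, and whether it goes with the direction of change was not tested.

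The 3 SLC6 carriers that passed were all lower. SLC6A6, the taurine transporter, had a log2 signal of 5.82, 5.76, 5.85 and 5.83 with R1881, against 6.43, 6.51, 6.59 and 6.75 in steroid-deplete medium. The R1881 arrays were nearly level with each other and all below the others, with a change of -0.75 (SE 0.08, adjusted p = 1.20e-05). SLC6A19, the neutral amino acid carrier of intestine and kidney, averaged 6.01 ± 0.07 with R1881 and 6.53 ± 0.07 without (SD, n = 4 each), a change of -0.51 (adjusted p = 1.72e-04), while SLC6A18, its neighbour on chromosome 5, was at 0.14 (adjusted p = 0.337). SLC6A11, a transporter of the neurotransmitter GABA, averaged 6.42 ± 0.06 with R1881 and 6.94 ± 0.14 without, a change of -0.52 (adjusted p = 3.87e-04). SLC6A9, the glycine transporter GLYT1, was at -0.39 and its groups overlapped (adjusted p = 0.0115). SLC6A3, the dopamine transporter, was at 0.28 with all R1881 arrays above the others (adjusted p = 0.0119). The other 11 SLC6 clusters lay between -0.18 and 0.20.

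In all, 37 clusters did not pass, with log2 fold changes between -0.39 and 0.35 and a median SE of 0.09. At an unadjusted p under 0.05, 4 of these were higher and 5 lower. The share of all clusters at that unadjusted limit was not counted, so nothing is read from these numbers.

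Exon-level RMA values gave 892 probe sets for the 53 genes, tested over all 620335 probe sets of the array. Of these, 27 (3.03%) were higher at an adjusted p under 0.005, against 0.679% of all probe sets, and 9 (1.01%) were lower, against 0.657%. Probe sets of a gene share RNA and arrays and are not replicates. All 27 higher probe sets belonged to SLC38A4 (14 of 17), SLC43A1 (9 of 16) and SLC38A2 (4 of 23). Of the lower, 5 belonged to SLC7A2 (of 16) and 1 each to SLC7A11, SLC38A6, SLC1A4 and SLC6A19. Without steroid-deplete replicate 2, 17 were higher, and without any 1 array other than R1881 replicate 4 between 2 and 4 were lower, against 6 without R1881 replicate 4.

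For several genes every probe set had the sign of the gene-level change, although few or none passed the test on their own. The fold changes of all 23 probe sets of SLC38A2 were positive (0.43 to 1.82, 4 past the limit) and those of all 15 of SLC7A11 were negative (-1.41 to -0.49, 1 past the limit). All 23 of SLC38A9, all 18 of SLC7A1 and all 15 of SLC6A6 were negative too, with 0 past limma's adjusted limit at probe set level and 16, 9 and 9 at an unadjusted p under 0.05. The share of all probe sets at that unadjusted limit was not counted, nor was the share of all genes with probe sets of 1 sign. Other members that passed at gene level had probe sets of both signs. In SLC6A19 6 of 20 were positive (up to 0.62), in SLC7A7 4 of 15 were positive, and in SLC7A8 4 of 21 were negative. Gene-level and exon-level values summarise the same arrays, so their agreement in sign is no independent support. SLC38A4 ranged from -0.29 to 7.26, with the lowest change in the 16th and the highest in the 11th probe set by number. The 11th probe set of SLC38A4 averaged 9.86 with R1881 and 2.60 in steroid-deplete medium. Its 16th and 17th probe sets were at -0.29 (adjusted p = 0.734) and -0.01 (adjusted p = 0.996), at means of 1.64 and 3.80 with R1881 and of 1.92 and 3.81 without. SLC7A2 ranged from -2.28 to 0.22, and its 1st and 2nd probe sets were at 0.03 and 0.22.

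**Figure D3:**
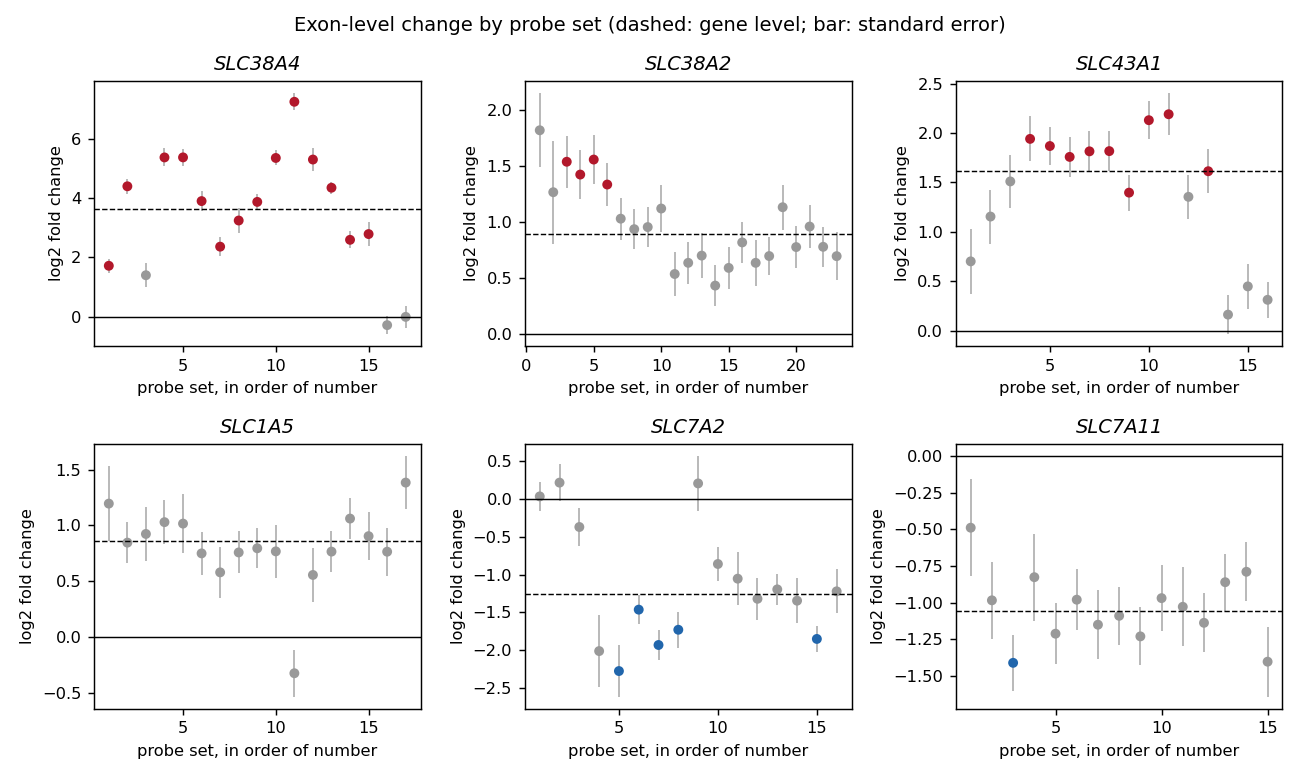
Exon-level log2 fold change (y axis, R1881 minus steroid-deplete, bars are standard errors) of each probe set of 6 members, in order of probe set number (x axis), with the gene-level change dashed; red marks higher and blue lower at an adjusted p under 0.005, grey neither. In SLC43A1 the 14th to 16th probe sets are at 0.16, 0.45 and 0.31, away from the dashed line at 1.62, while the probe sets of SLC7A11 all lie below 0.

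Probe sets were also compared with their own gene, by subtracting the gene's log2 Iter-PLIER value from that of the probe set. Of 420 member probe sets in 29 genes that passed the filters, 10 (2.38%) were higher relative to their gene at an unadjusted p of 0.001 or less, against 2% of all tested, and 7 (1.67%) were lower, against 0.777%. SLC38A4 was not among them because its gene-level change exceeded the 10-fold limit. Most of the higher probe sets belonged to SLC6A9 and most of the lower to SLC43A1, so the counts rest largely on these genes. The 3 lowest were the last 3 probe sets of SLC43A1, 3373932 (-1.75, adjusted p = 0.0066), 3373935 (-1.66, adjusted p = 6.80e-04) and 3373934 (-1.50, adjusted p = 0.0109). On their own they changed by 0.16, 0.31 and 0.45 while the gene rose by 1.62, and they stayed past the limit with exon-level and gene-level RMA values (-1.46, -1.31 and -1.17). Where these probe sets lie in the transcript is not given in the tables used here.

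The 3 highest were 1 probe set each of SLC1A6 (3853045, 1.70, adjusted p = 0.00328), SLC6A11 (2610563, 1.36, adjusted p = 0.0256) and SLC6A9 (2409546, 1.31, adjusted p = 0.0203). None of these 3 passed with RMA values, where the SLC1A6 probe set was at -0.15. A further higher probe set of SLC6A9, 2409540, named after its value was seen, did pass with RMA values (0.77). Chosen after their values were seen, probe set 3866294 of SLC1A5 was lower relative to its gene (-1.37, adjusted p = 0.00238, and -1.18 with RMA values) and 3740396, the last by number in SLC43A2, was higher (1.23, adjusted p = 0.00233, and 0.76 with RMA values). Without steroid-deplete replicate 2 there were 5 higher probe sets, and without R1881 replicate 4 or steroid-deplete replicate 3 there were 4 lower.

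Genes that act with these transporters moved in both directions. Of 22 measured genes of the amino acid response driven by ATF4 (25 listed), 3 (13.6%) rose and 8 (36.4%) fell, beside 6.44% and 12.2% of all clusters at the same limit. This list and those below were chosen with earlier results of these data known. The difference of their shares from those of all clusters was not tested. Log2 fold changes were -1.37 for PHGDH, which opens serine synthesis, -1.07 for DDIT4, an inhibitor of mTORC1, and 2.40 for VLDLR, a lipoprotein receptor. ASNS, asparagine synthetase, was lower by -0.72 (adjusted p = 1.98e-05). The factor itself, ATF4, was at 0.06 (adjusted p = 0.75), and its targets TRIB3 and DDIT3 at 0.01 and -0.02, none past the limit. The median of the list was -0.11, beside -0.003 over all clusters.

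Of 18 measured genes of lysosomal amino acid sensing upstream of mTORC1 (25 listed), 1 (5.56%) rose and 5 (27.8%) fell, against 6.44% and 12.2% of all clusters. SESN3 averaged 9.30 with R1881 and 11.08 in steroid-deplete medium (-1.78, adjusted p = 8.96e-09), and SESN1 7.79 with R1881 and 9.37 without (-1.58, adjusted p = 6.14e-08). SESN2, the leucine sensor, was also lower (-0.46, adjusted p = 4.49e-04). DEPDC5 was lower (-0.75, adjusted p = 2.70e-05), and SAR1B rose (0.83, adjusted p = 1.72e-05). SEH1L, the remaining gene of the 5 that fell, was lower by -0.61 (adjusted p = 1.29e-04). The other 12 did not pass, among them NPRL2 (0.08, adjusted p = 0.615) and NPRL3 (-0.36, adjusted p = 0.00832). Whether the pathway's activity changed was not tested.

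Of 14 measured carriers of amino acids and peptides in other families (18 listed), 2 (14.3%) rose and 1 (7.14%) fell, against 6.44% and 12.2% of all clusters. SLC15A2, a proton-coupled importer of di- and tripeptides, averaged 7.96 with R1881 and 5.89 without (2.07, adjusted p = 1.60e-09). The mitochondrial aspartate-glutamate carriers SLC25A13 (0.58) and SLC25A12 (-0.71) moved in opposite directions. Of 13 measured enzymes of amino acid use (25 listed), GLUL, which makes glutamine (0.87), and GOT1 (0.55) rose, and ASNS, BCKDHB (-0.51) and BCAT2 (-0.39) fell, which is 15.4% higher and 23.1% lower, against 6.44% and 12.2% of all clusters. Of 9 measured glutathione genes (13 listed), for which SLC7A11 supplies cystine, GCLC, a subunit of glutamate-cysteine ligase, was lower by -0.55 (adjusted p = 6.11e-04) and the other 8 did not pass. This 1 of 9 (11.1%) is close to the 12.2% of all clusters that were lower.

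**Figure D4:**
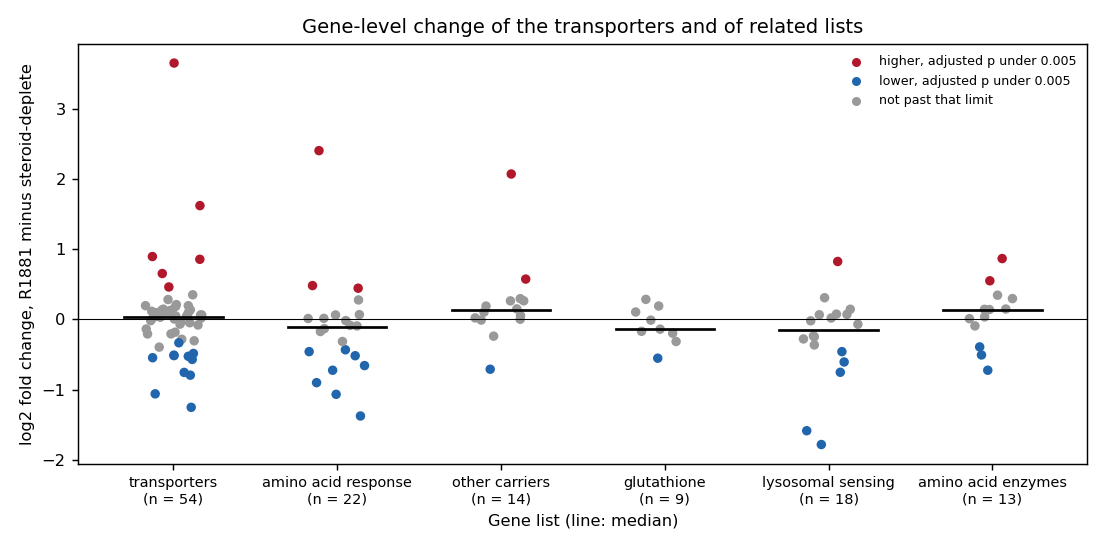
Gene-level log2 fold change (y axis, R1881 minus steroid-deplete) of the 54 transporter clusters and of 5 related gene lists, 1 point per gene, with the median as a line; red marks higher and blue lower at an adjusted p under 0.005, grey neither. The medians lie near 0 in every list, from -0.15 for lysosomal sensing to 0.14 for the amino acid enzymes, and the points beyond 2-fold are few.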

How the data were processed

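LNCaP RNA from 4 R1881 and 4 steroid-deplete samples was hybridised to 8 exon arrays, each deposited as 4 summaries (32 sets of values). The authors made gene-level and exon-level RMA values, deposited on the log2 scale, and gene-level and exon-level Iter-PLIER values, deposited as linear intensity (the methods name PLIER for the exon level). The submitters' processing notes name RMA, PLIER and hg18, without tool versions. Arrays hold no counts, and their number limits the precision.

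Groups came from the labels. Members, gene lists and tests were chosen with earlier results of these data known. Symbols came from the platform annotation, with 20 updated through a RefSeq gene table. Gene-level and exon-level RMA values were tested with limma 3.58.1 in R 4.3.3 (Benjamini-Hochberg over all 16309 clusters or 620335 probe sets). Relative changes used log2(value + 16), exon minus gene level, in probe sets within 5-fold of a gene that changed at most 10-fold, with percentile filters (25th) in place of detection p-values, at p of 0.001 or less over 126709 probe sets. The fits were tested on simulated data. Members past 2-fold were named with every array, those past an absolute log2 change of 0.5 with their values, and others as heavy or light chains, for the highest mean signals (SLC38A2, SLC38A1 and SLC3A2) or as counts. Array values of other members and members under 0.5 were added after their values were seen. From the lists, up to 4 genes past 2-fold were named by rule and the rest added likewise.

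Promoter windows came from RefSeq (GRCh38.p14), and no coordinate was converted from hg18. Alternatives were other summaries, the t-test named in the methods (adjusted by Benjamini-Hochberg or as Storey q values), level filters, array scalings, an intensity trend, other limits and pseudocounts, leaving out arrays, and the replicate number as a block. Numbers were not used as pairs, since same-numbered arrays did not deviate together from their group means (correlations of 0.07, 0.10, -0.10 and -0.06). No 2 arrays held identical values.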

Additional observations from a re-analysis of the deposited data

Results flagged for a closer look

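Among 20 members in 2 groups each, 1 array stood far from the other 3 of its group. SLC38A1 in steroid-deplete replicate 2 had a log2 signal of 9.77, while the other 3 steroid-deplete arrays lay between 9.45 and 9.48, and the 4 R1881 arrays spanned 9.36 to 9.75. By this measure chance alone marks about 1 in 20 groups, and 40 were examined.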

How the results depend on the processing

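No named member changed direction among those past the limit under any alternative. SLC38A4 (3.53 to 4.38), SLC43A1 (1.55 to 2.01), SLC38A2, SLC1A5, SLC6A19, SLC6A6 and SLC7A2 stayed past the limit under all alternatives in which they were tested. SLC38A4, SLC6A19, SLC6A6 and SLC7A2 lay under the median level and were not tested with that filter. SLC36A4, SLC43A2 and SLC38A9 no longer passed the adjusted p limit with the methods' t-test under both adjustments. SLC1A1, SLC6A11 and SLC36A1 no longer passed it with that t-test and Benjamini-Hochberg. SLC7A8 no longer passed it under 11 of 18 alternatives, SLC7A7 under 12 of 16 and SLC7A1 under 6 of 18, and SLC7A5 passed with Iter-PLIER values (-0.80). Of the 2 members called higher, 1 remained tested and called among clusters at or above the median level, and 5 were called at 1.5-fold. Members called lower numbered 5 with Iter-PLIER values, 1 at or above the median level, 1 after centring the arrays, 1 after renewed quantile normalisation, 4 at 1.5-fold, and 1 to 2 when each array was left out. Over all clusters, 333 were called lower as reported and 924 with Iter-PLIER values, where the median log2 fold change was -0.08. Clusters called lower numbered 224 at or above the median level, 259 after centring and 298 after renewed quantile normalisation. Members past the adjusted p and lower numbered 5 with the methods' t-test and Benjamini-Hochberg, where 867 of all clusters were, against 1986 as reported. When each array was left out, 2 members were called higher every time, 5 to 6 were past the adjusted p and higher, and 9 to 11 lower. Without steroid-deplete replicate 1 and R1881 replicate 4 together, chosen after seeing the data, 2 were called higher, 2 called lower, and 5 and 9 past the adjusted p.

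Higher probe sets numbered 14 with the replicate block and 17 to 21 with each array left out. Lower probe sets numbered 26 with Iter-PLIER values, 2 with the replicate block, 22 at or above the median level, and 2 to 6 with each array left out. Relative to the gene, higher probe sets numbered 2 with RMA values, 22 with a pseudocount of 64, 27 without the level filter, 16 at an adjusted p under 0.05 and 5 to 11 with each array left out. Lower ones numbered 14 with that pseudocount, 4 with the replicate block and 4 to 6 with each array left out. The causes were not tested. The block changed no count of members called at gene level (2 higher and 2 lower), and the numbers are not known to mark pairs. Centring the arrays moved the median log2 fold change of all clusters to 0.10. Detection p-values were not used, so no limit of detection can be given for dim clusters.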
